A study of Mus musculus with 3 samples.

Results

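Opcml, Ntm, Lsamp and Negr1 encode the IgLON proteins, a small family of adhesion molecules, and their loci were examined for binding of the homeodomain factor Nkx2.2 in mouse oligodendrocyte progenitor cells (OPCs) and oligodendrocytes (OLs). The members are the regions of the deposited table whose list of assigned genes holds 1 of these names, with Ntm written under its older symbol Hnt. They are 95 of 37271 regions, with 46 at Opcml, 21 at Ntm, 13 at Lsamp and 15 at Negr1. Regions entered the table where an interval was called in at least 1 of the ChIP libraries, so the members were chosen by these calls as well as by gene name. Their number and signals are therefore given as a description, with no test.

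The study ran chromatin immunoprecipitation with sequencing on a single OPC library and a single OL library, both with an anti-Nkx2.2 monoclonal antibody and 1.5e7 cells, and made an input library from both states that was not analysed here. OPCs came from cortices of C57BL/6 mice at postnatal day 7 by selection with an anti-PDGFRA antibody, and were cultured in serum-free medium with PDGF-AA (10 ng/mL), NT-3 (1 ng/mL) and CNTF (10 ng/mL). OLs were made ex vivo from such OPCs by withdrawing PDGF-AA and adding the thyroid hormone T3 (40 ng/mL) for 48 h. Cells for both states were grown at the same time, and the findings are of cultured cells. Values are the average signal per region as deposited, on a scale whose depth is unknown. With 1 library per state, no difference between the states has a replicate check.

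IgLON proteins sit on the outer face of the cell membrane through a lipid anchor and carry a short row of immunoglobulin domains, by which they bind themselves and each other on facing cells. They are best known from neurons, where they act on neurite growth and on the formation of synapses. Opcml was first described as an opioid-binding protein, Ntm (neurotrimin) acts on neurite growth, Lsamp marks neurons of the limbic system, and Negr1 is a regulator of neuronal growth. Nkx2.2 is known mainly as a repressor that recruits Groucho corepressors and takes part in the differentiation of oligodendrocytes.

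A region lay at the start of each gene in the deposited annotation, so the promoter sequences of these genes are shown here. RefSeq (GRCm38.p6) gives 300 bases, from 250 before to 50 after each annotated start, for 6 starts of the 4 genes. The regions themselves are in build mm9, and coordinates were not converted between builds. By coordinate, the deposited Lsamp distances begin near the RefSeq start at chr16:41532576-41532875, and the other Lsamp start lies 1548 kb from it. Neither RefSeq start of Ntm appears near the deposited one by coordinate, whose region is chr9:29770361-29771226 in mm9. The Opcml window lies at a higher coordinate than the mm9 region at its start, chr9:27598477-27599028. Both Ntm windows instead lie at lower coordinates than the mm9 region at the Ntm start. The Ntm windows are therefore not taken as the sequence of that region. Sequences run 5′ to 3′ on the gene's strand, which is minus for Ntm and plus for the others, and capitals mark matches on either strand to letters found in the core of NK2-class homeodomain sites. These were AAGTG, a longer form of it written TNAAGTG, and a variant written AAGTAC.
Opcml, chr9:27791049-27791348: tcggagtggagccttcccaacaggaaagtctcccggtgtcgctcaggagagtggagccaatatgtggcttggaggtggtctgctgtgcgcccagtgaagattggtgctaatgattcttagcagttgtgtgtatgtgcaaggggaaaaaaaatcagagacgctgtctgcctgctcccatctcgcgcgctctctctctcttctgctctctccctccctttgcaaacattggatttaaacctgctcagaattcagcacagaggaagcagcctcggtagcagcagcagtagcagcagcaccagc
Ntm, chr9:29412636-29412935: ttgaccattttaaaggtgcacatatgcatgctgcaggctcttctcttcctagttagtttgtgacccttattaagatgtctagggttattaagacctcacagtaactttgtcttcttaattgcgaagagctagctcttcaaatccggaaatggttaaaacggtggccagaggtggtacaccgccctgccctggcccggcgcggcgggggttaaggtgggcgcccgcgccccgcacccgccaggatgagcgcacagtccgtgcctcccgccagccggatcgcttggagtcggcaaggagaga
Ntm, chr9:29413403-29413702: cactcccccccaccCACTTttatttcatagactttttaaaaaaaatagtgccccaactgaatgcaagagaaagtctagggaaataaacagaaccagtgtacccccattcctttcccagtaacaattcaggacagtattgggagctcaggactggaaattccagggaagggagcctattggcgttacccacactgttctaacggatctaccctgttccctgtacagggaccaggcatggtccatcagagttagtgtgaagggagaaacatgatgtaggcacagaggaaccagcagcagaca
Lsamp, chr16:39984114-39984413: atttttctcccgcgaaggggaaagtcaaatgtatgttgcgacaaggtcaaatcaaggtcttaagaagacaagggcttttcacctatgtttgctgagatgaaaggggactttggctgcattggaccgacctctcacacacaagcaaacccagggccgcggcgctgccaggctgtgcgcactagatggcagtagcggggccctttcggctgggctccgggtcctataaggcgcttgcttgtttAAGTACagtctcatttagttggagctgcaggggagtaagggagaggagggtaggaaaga
Lsamp, chr16:41532576-41532875: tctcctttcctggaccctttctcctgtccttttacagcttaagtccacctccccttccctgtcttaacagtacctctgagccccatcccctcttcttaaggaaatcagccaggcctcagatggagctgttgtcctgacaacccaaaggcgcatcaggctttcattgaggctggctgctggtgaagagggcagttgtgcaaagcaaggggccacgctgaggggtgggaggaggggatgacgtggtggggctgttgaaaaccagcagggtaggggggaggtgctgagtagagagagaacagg
Negr1, chr3:156561544-156561843: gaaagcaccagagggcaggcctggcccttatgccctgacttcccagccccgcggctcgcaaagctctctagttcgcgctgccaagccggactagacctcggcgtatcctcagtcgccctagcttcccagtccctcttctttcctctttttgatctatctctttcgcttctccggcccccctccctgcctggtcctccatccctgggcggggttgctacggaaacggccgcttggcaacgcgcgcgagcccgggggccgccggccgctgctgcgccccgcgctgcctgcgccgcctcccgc
AAGTG was found in 1 of these 6 windows, as its reverse complement beginning 236 bases before 1 of the Ntm starts, against 46.4% of 32841 RefSeq promoter windows of the same length. AAGTAC was found in 1, beginning 9 bases before the Lsamp start at chr16:39984114-39984413, against 7.37% of all windows. That is not the start near which the deposited Lsamp distances begin. The Ntm window with the AAGTG match likewise does not appear near the deposited Ntm start by coordinate. TNAAGTG, which contains AAGTG, was in 0 of 6, against 11.5%. The Negr1 window was the richest in G and C, at 68.0%, and the Ntm window with the AAGTG match the poorest, at 47.3%. Windows this short leave most of each region unread, and no sequence was read for the regions inside the genes.

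Opcml carried more regions than any other gene name in the table. Its 46 regions were followed by the 35 of Tnr, a matrix protein gene, and the 31 of Sox6, a transcription factor gene. Of 293 genes with 10 or more regions, Ntm ranked 25, Negr1 80 and Lsamp 122 by number of regions. The Opcml regions spread over 1104 kb from the first to the last middle, those of Ntm over 922 kb, of Negr1 over 602 kb and of Lsamp over 570 kb. Opcml was thus densely occupied for its span, with 4.07 regions per 100 kb, while Ntm, Lsamp and Negr1 had 2.17, 2.11 and 2.33. Among the 71 genes whose regions span 500 kb or more, the mean spacing was 53.2 kb at the median gene and 24.5 kb for Opcml, which ranked 70 from the widest. Among all 293 genes, most of shorter span, Opcml ranked 133 from the widest. Its mean spacing was near the median of 23.0 kb over the 289 of them outside the IgLON genes. Other long adhesion genes had fewer regions, with 27 over 862 kb at Nlgn1 and 23 over 890 kb at Cadm2, and Csmd1 had 29 over 1585 kb.

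**Figure D1:**
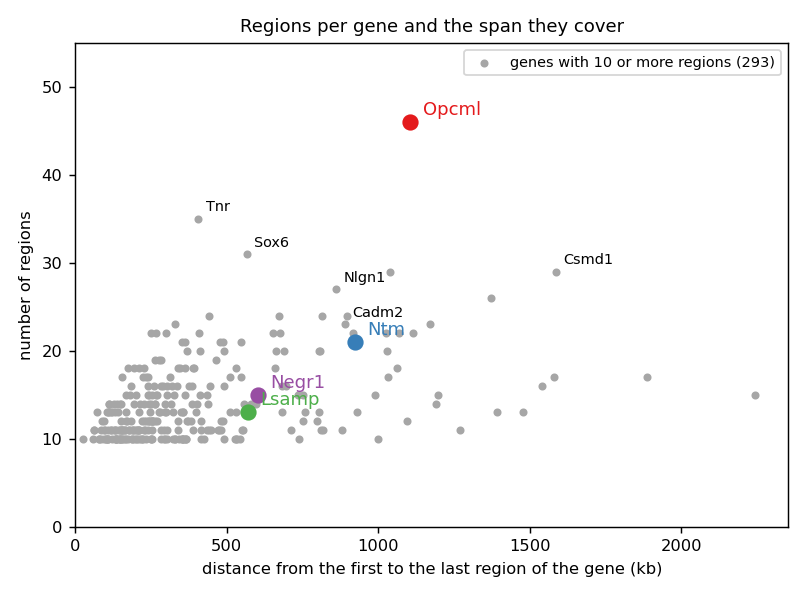
Number of regions (y axis) against the distance in kb from the first to the last region (x axis) for the 293 genes with 10 or more regions, 1 point per gene, with the IgLON genes in colour. Opcml, at 46 regions, stands above all other points, while Ntm (21), Negr1 (15) and Lsamp (13) lie among genes of like span.

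Neighbouring regions lay closest together at Opcml. The median distance between the middles of neighbours was 17.0 kb there, 19.3 kb at Lsamp, 26.4 kb at Negr1 and 34.9 kb at Ntm, and 21.7 kb over all 91 pairs. Distances varied widely within each gene, from 0.689 to 113 kb at Opcml, 2.41 to 150 kb at Ntm, 0.778 to 201 kb at Lsamp and 4.95 to 244 kb at Negr1. Of the 25 pairs under 10 kb apart, 17 were at Opcml and 1 at Ntm, and all 6 pairs under 2 kb were at Opcml or Lsamp. The closest pair was chr9:28395153-28395902 and chr9:28395970-28396463 in Opcml, with 68 bases between their ends. The first of these was called in both libraries, at 5.56 (OPC) and 6.48 (OL). The second was an OL call alone, at 3.07 (OPC) and 5.93 (OL). The longest empty stretch was at Negr1, between a region 98.7 kb and one 342 kb from the start. At Lsamp 2 pairs were over 100 kb apart, and at the other genes 1 pair each.

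**Figure D2:**
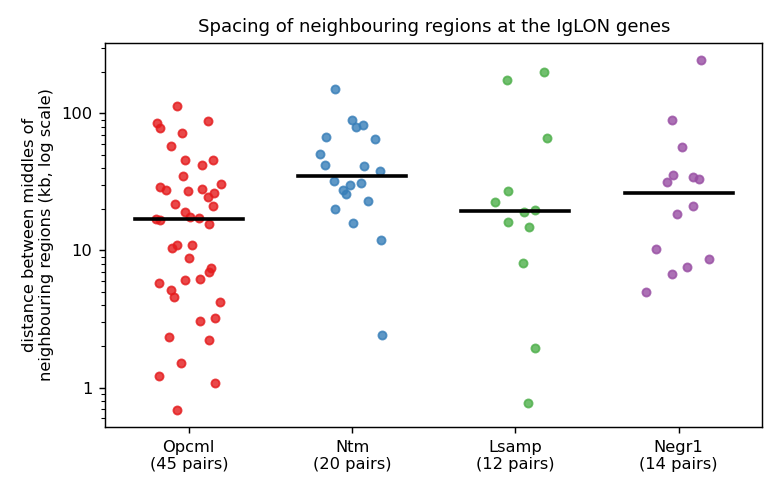
Distance in kb, on a log axis, between the middles of neighbouring regions at each IgLON gene, 1 point per pair, with the median as a bar. The median is lowest at Opcml (17.0 kb) and highest at Ntm (34.9 kb), and every gene spans more than an order of magnitude.

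Opcml and Ntm lie next to each other on chromosome 9, and their regions follow one another along it. Together they hold 67 regions over 2181 kb. Distances to the start grow with the coordinate for Opcml and shrink for Ntm, so the genes point toward each other. Between the last Opcml region and the first Ntm region there were 155 kb and 0 other regions. No region inside the span of any IgLON gene lacked that gene's name, the count being 0 for each of the 4.

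The share of IgLON regions called in each library was close to that of all regions. A call was present in OPC at 35 of the 95, or 36.8% (exact Clopper-Pearson 95% interval 27.2 to 47.4%, counting error over regions only), against 38.6% of all regions. In OL it was present at 81, or 85.3% (76.5 to 91.7%), against 85.3% of all regions. Both libraries had a call at 21, or 22.1%, against 23.8% of all regions. OL alone had one at 60, or 63.2%, against 61.4%, and OPC alone at 14, or 14.7%, against 14.7%. The signal of IgLON regions was moderate. The highest OL average, 19.6 at Opcml, ranked 463 among all 37271 regions, and the highest OPC average, 8.15 at Lsamp, ranked 2229. Medians over the 95 regions were 2.73 in OPC and 5.28 in OL, against 3.0 and 5.0 over all regions.

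**Figure D3:**
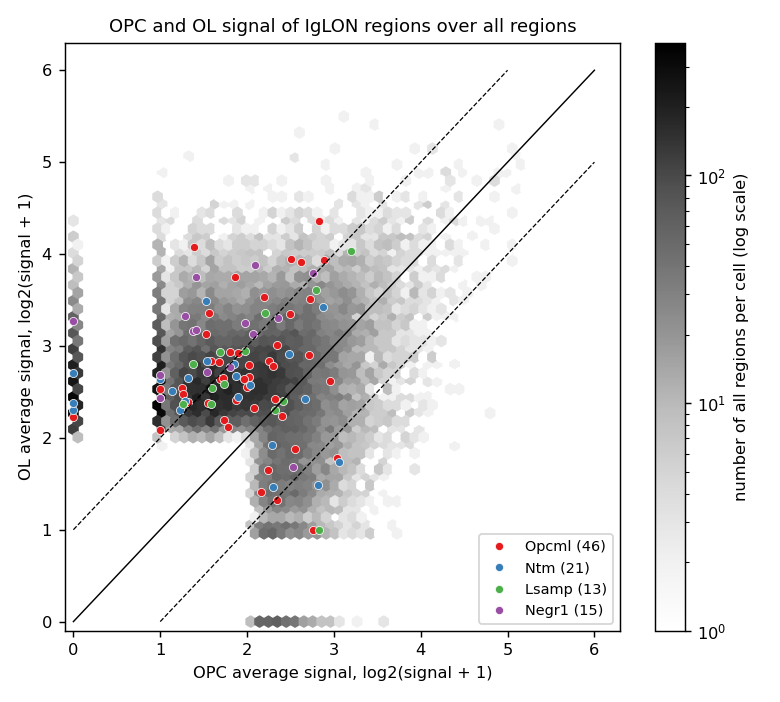
OL average signal (y axis) against OPC average signal (x axis), both as log2(signal + 1), for the 95 IgLON regions (coloured points) over all 37271 regions (grey cells, darker where more regions fall). The solid line marks equal signal and the dashed lines a difference of 1 on this log2 scale, and most IgLON points lie above the solid line, within the dense part of all regions.

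The OL to OPC ratio of the IgLON regions leaned further to OL than that of all regions. With Negr1 left out, IgLON regions far from the start were close to all regions so placed. Among regions called in both libraries, described below, Opcml leaned to OL too. The ratio used is log2((OL + 1) / (OPC + 1)), with a pseudocount of 1 that understates it for weak regions. Its median was 0.97 over the 95 regions and 0.74 over all regions. OL exceeded OPC at 78 of the 95, or 82.1%, against 77.4% of all regions. The ratio reached 1 or more at 46 regions, or 48.4% (38.0 to 58.9%), against 37.5% of all regions and 43.7% of regions in a gene and over 100 kb from its start. Counting only IgLON regions over 100 kb from the start, it was 39 of 79, or 49.4% (37.9 to 60.9%). Without Negr1 it was 30 of 69, or 43.5% (31.6 to 56.0%), close to that 43.7%, with a median of 0.85 against 0.87. It was -1 or less at 6, or 6.32%, against 7.03% of all regions. Setting the median of all regions to 0, a shift of 0.74, left a median of 0.23. Then 14 regions, or 14.7%, were at 1 or more, against 13.2% of all regions. At -1 or less were 13, or 13.7%, against 17.5% of all regions. The excess of OL over OPC signal thus depends on the scale between the libraries. Setting the median of regions called in both libraries to 0, a shift of 0.24 for every region, gave a median of 0.72. Here 31 regions, or 32.6%, were at 1 or more, against 27.2% of all regions. At -1 or less were 8, or 8.42%, against 10.1% of all regions.

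Regions called in both libraries differed more from their background. At the 21 IgLON regions of this kind the median ratio was 0.84, against 0.24 over all 8879 such regions and 0.20 over the 1014 of them in a gene and over 100 kb from its start. The ratio reached 1 or more at 8, or 38.1% (18.1 to 61.6%), against 9.45% of all regions called in both libraries and 11.5% of those over 100 kb into a gene. These 8 were 5 regions of Opcml and 3 of Negr1. Over 100 kb from the start it was 6 of 14, or 42.9% (17.7 to 71.1%). Over the 21, the median OPC signal was 4.69 against 5.37 for all regions of this kind, and the median OL signal 9.70 against 6.73. This comparison was chosen after its values were seen, and the 21 regions come from 4 genes and share the same libraries.

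**Figure D4:**
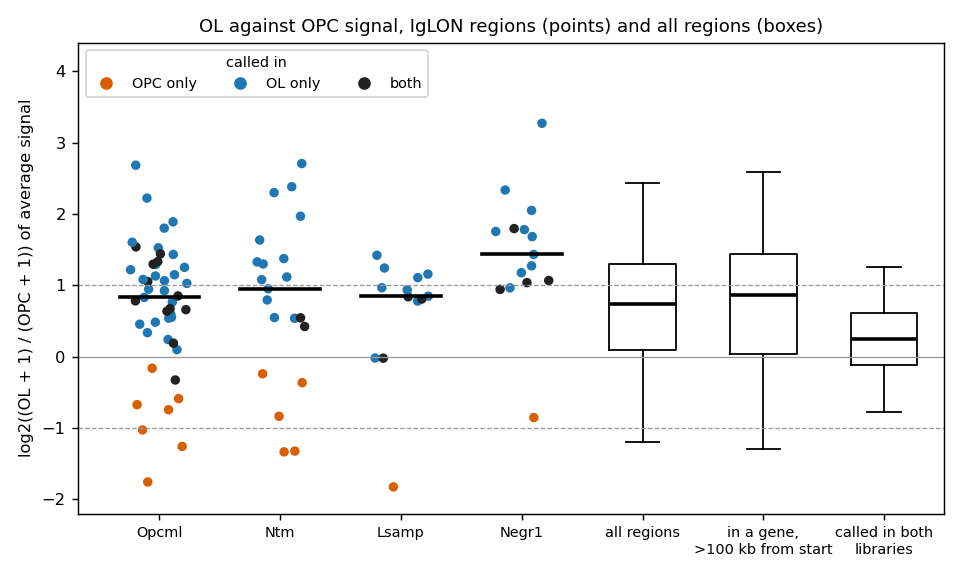
The log2 ratio of OL to OPC average signal for each IgLON region by gene (points, coloured by the library with a call, bar at the median) and for 3 sets of all regions (boxes from the 25th to the 75th percentile with the median, whiskers from the 5th to the 95th). Negr1 has the highest median, 1.43, and its only point below 0 is a region called in OPC only.

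Opcml had its strongest OL signal near the beginning of the gene, and strong regions recurred along it. The highest was chr9:27637669-27638500, 39230 bases into the gene, where OL reached 19.6 and OPC 6.08. Next was chr9:28321270-28321954, 722758 bases in, where OL reached 15.9 and OPC 1.63, the highest log2 ratio of the gene at 2.68. The third, chr9:27806331-27807028, reached 14.5 in OL against 4.69 for OPC. All were higher in OL, and the second had no OPC call. The region that covers the start of the gene was weak and even. This was chr9:27598477-27599028, its middle 102 bases before the start, at 4.0 (OPC) and 4.35 (OL), with a call in OL alone. A region 2327 bases before the start was likewise an OL call alone, while one 9275 bases before it, at 5.61 (OPC) and 10.4 (OL), was called in both.

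Opcml held 7 regions called in OPC only, or 15.2% of its 46, near the 14.7% of all regions. All were inside the gene between 160077 and 859206 bases from its start. Their OPC signal ran from 3.46 to 7.23, with a median of 4.29, and their OL signal from 1.00 to 3.73. The highest of them, chr9:28062617-28063010, lies 463959 bases in and gave 7.23 for OPC against 2.44 for OL, a log2 ratio of -1.26. One 420708 bases in gave 5.75 against 1.00, a ratio of -1.75. Regions of opposite preference were neighbours in places. The first of the 7, at 160077 bases (OPC 4.88, OL 2.69), lies between an OL call alone at 154237 bases (OPC 2.63, OL 12.5) and a call of both libraries at 190662 bases (OPC 5.14, OL 14.1). Over the whole gene 19 regions (41.3%) had an OPC call and 39 (84.8%) an OL call, near the 38.6% and 85.3% of all regions. The median ratio was 0.84. At 1 or more were 20 regions, or 43.5%, against 37.5% of all regions, and at -1 or less 3, or 6.52%, against 7.03%.

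**Figure D5:**
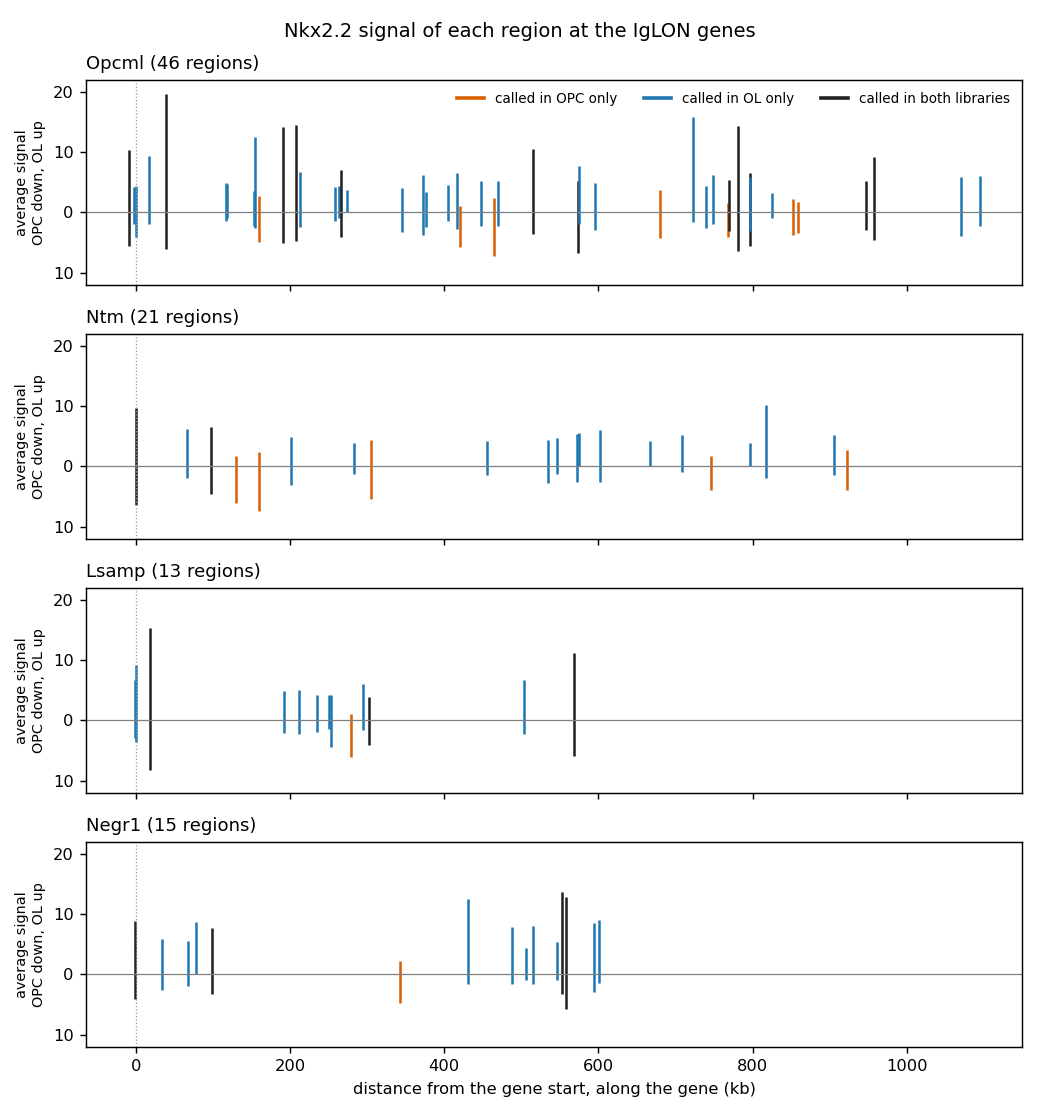
Average signal of each region along the 4 IgLON genes against the distance in kb from the gene start, with OL drawn upward and OPC downward, coloured by the library in which the region was called. Regions called in OPC only (7 at Opcml, 5 at Ntm, 1 each at Lsamp and Negr1) lie among OL calls, and the 9 Negr1 regions beyond 400 kb are all higher in OL.

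Ntm was the most thinly called in both libraries at once. Only 2 of its 21 regions, or 9.52% (1.17 to 30.4%), had a call in both, against 23.8% of all regions, while 14 had an OL call alone and 5 an OPC call alone. Of the pair, chr9:29770361-29771226 covers the start, its middle 79 bases before it, at 6.33 (OPC) and 9.70 (OL). The other lay 97925 bases into the gene, at 4.59 (OPC) and 6.50 (OL). The highest OL signal was 10.3 at chr9:28953452-28953845, 817066 bases in, where OPC had 1.88. The highest OPC signal was 7.33 at chr9:29610597-29611007, 159912 bases in, where OL had 2.33. The next region toward the start, at 130072 bases, had 6.03 (OPC) and 1.79 (OL). These neighbours were the only Ntm regions with a ratio of -1 or less, or 9.52%, against 7.03% of all regions. A ratio of 1 or more was found at 10, or 47.6%, against 37.5% of all regions, and the median was 0.95. OPC was listed at 0 at 3 regions, as at 2253 of all 37271 regions, and 1 of the 21 is also assigned to another gene.

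Lsamp was most strongly occupied just inside its start. The region chr16:41551699-41552586, 18687 bases in, was called in both libraries, at 8.15 (OPC) and 15.4 (OL). So was the last region, chr16:42101940-42102770, 568900 bases in, at 5.94 (OPC) and 11.2 (OL). At the start lay a pair of OL calls with 48 bases between them. The nearer, chr16:41532659-41533506, covers the start and a CpG island feature and gave 3.60 for OPC against 9.26 for OL. The farther gave 2.94 against 6.70. Between 192250 and 302624 bases from the start lay 8 weaker regions, whose OL signal stayed between 1.00 and 5.97. One of these, 279634 bases in, was the gene's single OPC call alone, with OPC at 6.08 and OL at 1.00. Another, 252412 bases in, was even at 4.33 (OPC) and 4.27 (OL). Among the stronger regions the highest ratio was 1.24, at 503243 bases (OPC 2.22, OL 6.63). Of the 13 regions 4, or 30.8% (9.09 to 61.4%), had an OPC call and 12, or 92.3% (64.0 to 99.8%), an OL call, and these intervals hold the 38.6% and 85.3% of all regions. The median ratio was 0.85, against 0.74 over all regions.

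Negr1 had the strongest lean to OL of the 4 genes. Its median OL signal was 8.00, against 5.21 at Opcml, 5.0 at Lsamp and 4.71 at Ntm, while its median OPC signal, 1.90, was the lowest of them. The median ratio was 1.43 and 12 of 15 regions, or 80.0% (51.9 to 95.7%), reached 1 or more, against 37.5% of all regions. None, 0 of 15, was at -1 or less (0 to 21.8%), an interval that holds the 7.03% of all regions. The region at the start, 1 of the 15, is shared with another gene. Among the 71 genes whose regions span 500 kb or more, Negr1 ranked 1 in median OL signal and 2 in median ratio. Among all 293 genes with 10 or more regions it ranked 4 and 10. The spread of ratios overlapped between genes, with quartiles at 1.05 and 1.79 for Negr1 and at 0.37 and 1.28 for Opcml. Its highest OL value was 13.8 at chr3:156777931-156778476, 553445 bases in, where OPC had 3.25, and the next region, chr3:156782864-156783441, had 12.9 and 5.78. At chr3:156655403-156656200 OL had 12.5 and OPC 1.67, and at chr3:156301820-156302530 OL had 8.65 and OPC was listed at 0.

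At Negr1 the median ratio was higher far from the start, though the gene's highest ratio, 3.27, lay 77417 bases in. The 9 regions beyond 400 kb from the start all had a call in OL and a ratio between 1.04 and 2.34, and 2 had a call in OPC. The 6 others had a median ratio of 1.02, with 3 at 1 or more, against 1.75 for the 9, a limit chosen after the values were seen. The first region after the long gap, 342313 bases in, was an OPC call alone, with OPC at 4.78 and OL at 2.2. At the start, a 2080-base region at chr3:156223042-156225122 held calls of both libraries and 2 CpG island features, at 4.13 (OPC) and 8.87 (OL). It is also assigned to 4930570G19Rik, so its signal cannot be given to Negr1 alone. Outside the gene, within 500 kb on either side of its first and last regions, 6 regions had no assigned gene. Of these, 5 were called in OPC and 3 in OL, and their median ratio was -0.65, against 1.43 within the gene. Over all regions without a gene 40.5% had an OPC call and 81.0% an OL call, with a median ratio of 0.74. Such flanking regions had medians of 1.03 at Opcml (8 regions), 1.09 at Ntm (10) and 0.14 at Lsamp (11).

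Pooled by position, the IgLON regions gave these medians, which mix genes in unequal numbers. The 7 regions with a middle upstream of a start had median signals of 4.0 (OPC) and 8.87 (OL). All 7 had an OL call, against 85.3% of all regions. The 9 regions within 100 kb inside a start had 2.50 and 7.78, the 38 from 100 to 500 kb had 2.47 and 4.39, and the 41 beyond 500 kb had 2.73 and 5.42. Median ratios of these groups were 0.83, 1.18, 0.93 and 1.05. Within Negr1 the median OL signal was higher beyond 400 kb, at 8.50, than up to that distance, 6.81. All 14 regions called in OPC only were inside a gene and over 100 kb from its start, where they made up 17.7% of 79 IgLON regions against 16.3% of all regions so placed.

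Iglon5, the fifth member of the family, is listed as A230106M20Rik and had only 3 regions, 1 called in OPC and all in OL. Its highest OPC signal was 6.36 and its highest OL signal 5.91. In a list of 26 adhesion genes of the immunoglobulin superfamily that includes it, 21 had a region. These had a median of 6 regions, against 2 over all gene names with a region. Those with most regions were Dscam and Kirrel3 with 21 each, Ncam1 with 16, Dscaml1 with 15 and Sdk2 with 13, all of which encode adhesion molecules of developing neurons. No region was assigned to Cntn2, Cntn3, Kirrel2, L1cam or Thy1. Over the 176 regions of the list 42.0% had an OPC call and 85.8% an OL call, near the 38.6% and 85.3% of all regions. The median of the gene medians was 0.87, against 0.69 over all 14473 gene names, and ranged from -0.67 at Cntn1 to 2.04 at Nfasc. At the IgLON genes these medians were 0.84 at Opcml, 0.95 at Ntm, 0.85 at Lsamp and 1.43 at Negr1, all inside that range.

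Genes most like each member were found by the share of regions called in OPC, the share called in OL and the median ratio, each scaled to its SD over the 293 genes with 10 or more regions. Nearest to Opcml were Gpc6, Map4k4, Ptprg, Magi2 and Creb3l2, at distances of 0.16 to 0.35 SD. For Lsamp they were Nav1, Fyn, Dscaml1, Svil and Xylt1, at 0.15 to 0.25 SD. Ntm and Negr1 had no gene as close. The nearest to Ntm were Prkce, Pard3b, A2bp1, Dcc and Auts2, at 0.43 to 0.56 SD, and those near Negr1 included Plekha5, Dlg2, D430041D05Rik and 1700112E06Rik, at 0.38 to 0.59 SD. These nearest genes have 10 to 26 regions each, and all values come from the same 2 libraries.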

How the data were processed

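The deposited table gives, for each merged region, the average and the highest signal in the OPC and the OL library. Per the file headers, intervals were called in each library and joined into regions, and calls were not made on pooled libraries. The submitters' processing notes list BWA, MACS 1.4.2 and mm9. How strictly intervals were called, whether the input entered, and how the libraries were scaled to each other is not given in those notes or labels. Deposited average signals were either 0 or at least 1, with 0 values in between, and it is unknown whether starts are 0-based or 1-based.

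Regions were matched to genes by whole names. The log2 ratio used a pseudocount of 1 and no filter on low signal. Shares carry exact Clopper-Pearson 95% intervals. There was no test between states, since each has 1 library. Functions were checked on simulated regions. Tools were Python 3.11.15, pandas 2.3.3, NumPy 2.4.6, SciPy 1.17.1 and matplotlib 3.10.9. Regions named were those nearest to each start, the 3 highest per gene, the highest and lowest ratio among each gene's stronger regions (mean signal over the median of all), and the closest and farthest neighbours. Others named, such as the groups of regions called in OPC only and the Negr1 regions beyond 400 kb, were chosen after their values were seen. One gene near Negr1 in likeness is not reported here. Members and lists were chosen with earlier results of these data known.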

Additional observations from a re-analysis of the deposited data

How the results depend on the processing

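The median ratio of the IgLON regions stayed above 0 under every alternative run. It was 0.80 with a pseudocount of 2 and 1.32 from the peak signal, for which the cause was not tested. With the median of regions called in both libraries set to 0 it was 0.72. With the median of all regions set to 0 it was 0.23. The median of all regions moved with these settings too, and was 1.00 from the peak signal. Regions at 1 or more numbered 14 of 95 with the median of all regions set to 0. They were 25 of the 47 regions at or above the median mean signal and 26 of 49 without Opcml. Regions at -1 or less numbered 10 of 95 from the peak signal, or 10.5%, against 10.8% of all regions. They were 13 of 95 with the median of all regions set to 0, 2 of the 47 stronger regions and 3 of 49 without Opcml. Counts over 47 or 49 regions cannot be set beside those over 95. Calls at or above the median signal of all calls in that library left 16 of 35 in OPC and 44 of 81 in OL. Both libraries then had a call at 9 of 21. The limit drops the weaker part of all calls by construction, so these falls are not a trait of IgLON regions. The median spacing was 57.9 kb between regions called in OPC, which are fewer. The other 28 values stayed within a 95% order-statistic interval of the median, or for counts within 1.5 times the reported count, including 122 regions when those before Lsamp were added, an alternative chosen after seeing the data. No paired analysis was possible because each state has 1 library. Depth is unknown, so no limit from counting reads could be given.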

Other observations

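Lsamp has a second RefSeq start far before the one at which the deposited distances begin. The 2 starts lie 1548 kb apart in GRCm38.p6. Over the same distance before the deposited Lsamp start in mm9, the table holds 28 regions, 27 of them with no assigned gene. Of these 27, 10 had an OPC call and 22 an OL call, and the median signals were 2.62 (OPC) and 4.46 (OL). Of all regions without a gene, 40.5% had an OPC call and 81.0% an OL call. The median log2 ratio of the 27 was 0.82, against 0.85 at the 13 Lsamp regions and 0.74 over all regions without a gene. Of the 27, 8 were at 1 or more and 4 at -1 or less, against 39.9% and 10.4% of all regions without a gene. The strongest in OL was chr16:40738670-40739403, with 4.38 in OPC and 15.2 in OL. The region nearest to the far end of that distance, chr16:39984266-39984944, has its middle 389 bases from it, overlaps a CpG island feature and had 5.33 in OPC and 5.20 in OL, with calls in both libraries. Coordinates were not converted between builds, so whether these regions lie inside the longer Lsamp transcript was not determined.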
